A study of Rattus norvegicus with 29 samples.

Results

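The comparison described here sets rat kidney cells given acetaminophen for 6 h beside control cells of the same time. The cells were primary renal proximal tubule epithelial cells, taken from rat kidney and kept in culture, and RNA abundance was measured by sequencing. Libraries were chosen by their labelled treatment and time point alone, which gave 5 of the 29 libraries of the series: 3 with acetaminophen (replicates 1, 2 and 3) and 2 controls (replicates 2 and 3). All 5 share the cell type and the 6 h time point. The sources used here state neither the dose and vehicle, nor the strain, sex and age of the animals, nor whether replicates came from separate animals or cultures. The p-values thus measure only the spread among replicate libraries, which may be technical. That spread was pooled over all 29 libraries of the series and not taken from these 5 alone.

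Acetaminophen is an analgesic that the body removes mostly as glucuronide and sulfate conjugates. A small part is oxidised by cytochrome P450 enzymes to a reactive quinone imine, which glutathione binds. When glutathione runs low, the quinone imine binds proteins, and at high doses this injures the liver and, in the kidney, the proximal tubule. Proximal tubule cells reabsorb glucose, amino acids, phosphate and filtered protein, and take up and secrete many drugs.

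The deposited tables list 28420 transcripts by Ensembl transcript identifier and do not pair these with gene names, and the reference table used here holds no such identifier. Transcripts could thus not be assigned to genes, pathways or markers, and the labelled cell type was not checked against marker genes. The response is therefore described through groups of transcripts, and 4 transcripts are given by identifier. These 4 were taken by rule from transcripts called as changed (adjusted p under 0.05, by the test given below). The rule also asked for at least 10 estimated counts in each of the 5 libraries. Treated and control values were not to overlap. The passed test and the lack of overlap were thus set by the rule for all 4 and are not results about them. In each direction the rule took the transcript with the largest fitted log2 change and the one with the largest change in mean TPM.

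The 5 libraries were alike in depth and breadth. They held between 9237441 and 11446612 estimated counts, and between 13669 and 13918 transcripts reached 10 counts. Fragment length, read as the bases by which effective length falls short of transcript length, ran from 246.6 to 251.6 bases in treated and from 257.1 to 263.2 bases in control libraries. These ranges do not overlap. A fit with fragment length as a covariate called 8128 transcripts, beside 7799 without it, and 7434 of the 7799 passed there in the same direction. Replicates differed by 0.56 to 0.614 in log2 CPM, the count scaled to library size (root mean square over the tested transcripts), and treated and control libraries by 1.05 to 1.09.

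A large part of the tested transcripts differed between acetaminophen and control libraries at 6 h. Of 15990 tested transcripts, 3876 rose and 3923 fell, which is 48.8% of all (24.2% up and 24.5% down; edgeR quasi-likelihood test, adjusted p under 0.05). Most of these changes were small: 59.9% of the called transcripts moved by less than 2-fold and 29.2% by less than 1.5-fold. The quartiles of the rises were 0.56 and 1.47 on the log2 scale, and those of the falls -1.27 and -0.52. In these shares and quartiles, 75 rises and 36 falls without any count in a group stand at a lower bound, described below. Some of these may have moved further than counted here. Among called transcripts the SE had a median of 0.148 on the log2 scale, so changes well under 2-fold could pass.

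The tail of large changes leaned upward. More than 4-fold changes numbered 574 rises and 367 falls, more than 8-fold changes 212 and 88, and more than 16-fold changes 73 and 20. At more than 32-fold there were 23 rises and 4 falls. A stricter test, edgeR's glmTreat, asks whether a change exceeds 2-fold by more than its error. It passed 1555 transcripts, 9.72% of those tested, of which 887 rose (5.55%) and 668 fell (4.18%). In these counts of fold steps, a group without any count of a transcript was given a floor of 3 counts per library, which makes the fold a lower bound. This touched 111 called transcripts, 75 that rose and 36 that fell, and 36 and 14 of those in the glmTreat lists. Transcripts with only a few counts in a group kept their fitted change, so the widest folds can rest on few counts. On log2(TPM + 1) with limma, the count beyond 2-fold was 714, on log2(TPM + 0.1) it was 1005, and DESeq2 gave 1131.

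**Figure D1:**
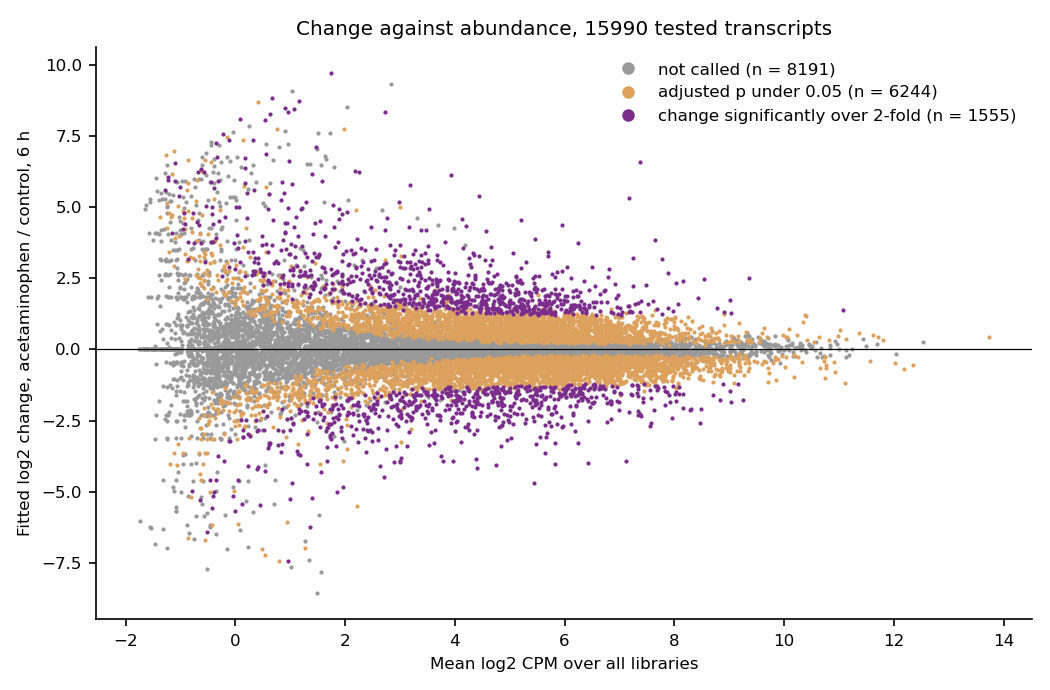
Fitted log2 change between acetaminophen and control at 6 h (vertical axis) against mean log2 CPM over all libraries (horizontal axis), 1 point per tested transcript. Grey points are the 8191 not called, orange and purple points together the 7799 called, and purple points the 1555 whose change exceeded 2-fold by the glmTreat test; the widest fitted values at the left are transcripts with few or no counts in a group, whose fitted change is not a bound.

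The calls rest on the mean of the treated libraries, so their overlap with controls is given as a description. Treated and control TPM values did not overlap for 3850 of the 3876 rises and 3908 of the 3923 falls. Over all tested transcripts, the 3 treated libraries stood above both controls in 32.5% and below both in 38.9%. When each of the 5 libraries was left out in turn, 5500 of the called transcripts (70.5%) passed in the same direction every time, 2709 upward and 2791 downward.

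The largest fold rise by the rule was that of ENSRNOT00000005085, a transcript of 1894 bases. It stood at 1.49 and 1.00 TPM in the control libraries, which rests on 21 and 15 counts, and at 112, 122 and 113 TPM in the treated libraries, on 1528 to 1904 counts. It was thus nearly silent in both controls and well expressed in every treated library. The fitted log2 change was 6.59 ± 0.45 (SE; edgeR adjusted p = 5.8e-11), a 96.3-fold rise. In order of mean TPM it moved from rank 13345 in controls to rank 1277 with acetaminophen. High values were also present with gentamicin, an aminoglycoside antibiotic: its 6 h libraries held 189, 161 and 104 TPM, and the fitted log2 difference between the 2 drugs was -0.22 ± 0.24 (SE, edgeR adjusted p = 0.47). That interval leaves room for a difference in either direction. With TCDD, a dioxin, and trichloroethylene, a solvent, the 6 h means were 1.56 ± 0.588 and 1.51 ± 0.176 TPM (SD, n = 3 each), near the control mean of 1.25 ± 0.346 TPM (n = 2).

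ENSRNOT00000065327, of 2669 bases, had the largest fold fall among the transcripts that met the rule. Its control values were 35.0 and 39.3 TPM (727 and 869 counts), and its treated values were 1.72, 1.13 and 1.21 TPM (43, 24 and 24 counts). The rule required treated values below both controls, and here they were far below. The log2 change was -4.7 ± 0.15 (SE; edgeR adjusted p = 3.3e-17), or 26.1-fold lower, and its rank went from 3937 to 13185. Gentamicin libraries lay in between at 20.5, 19.2 and 21.1 TPM, and acetaminophen was lower than gentamicin by a log2 difference of -3.71 ± 0.15 (SE, edgeR adjusted p = 5.2e-16). Means with TCDD (38.1 ± 4.33 TPM) and trichloroethylene (41.6 ± 2.07 TPM, SD, n = 3 each) were close to the control mean of 37.2 ± 3.05 TPM (n = 2).

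Among the transcripts that met the rule, the largest gain in TPM fell to ENSRNOT00000050156, of 1545 bases. It was the most abundant transcript of both groups. It held 11101 and 12262 TPM in controls and 15333, 14736 and 14861 TPM with acetaminophen. The treated values lie close together and, as the rule required, above both controls. Its log2 change was 0.42 ± 0.13 (SE; edgeR adjusted p = 0.0082), a 1.34-fold rise. The call was lost in some settings: without control replicate 2 the log2 change was 0.36 (edgeR adjusted p = 0.089), and limma on log2(TPM + 1) gave 0.36 (adjusted p = 0.12). Without control replicate 3 it was 0.48 (edgeR adjusted p = 0.025). Gentamicin libraries held 14982 to 17335 TPM, and the log2 difference between acetaminophen and gentamicin was 0.04 ± 0.11 (SE, edgeR adjusted p = 0.76).

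Among the transcripts that met the rule, the largest loss in TPM was that of ENSRNOT00000042459, of 1267 bases. Controls held 2780 and 3035 TPM and treated libraries 1713, 1808 and 1731 TPM. By the rule every treated library was below both controls, and the transcript moved from rank 37 to rank 99. The log2 change was -0.67 ± 0.11 (SE; edgeR adjusted p = 1.4e-05), or 1.59-fold lower. Its estimated counts were not whole in every library, so part of its reads was divided with other transcripts by the authors' tool. With gentamicin it held 2394 to 2799 TPM, and acetaminophen was lower by a log2 difference of -0.43 ± 0.1 (SE, edgeR adjusted p = 0.00072).

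**Figure D2:**
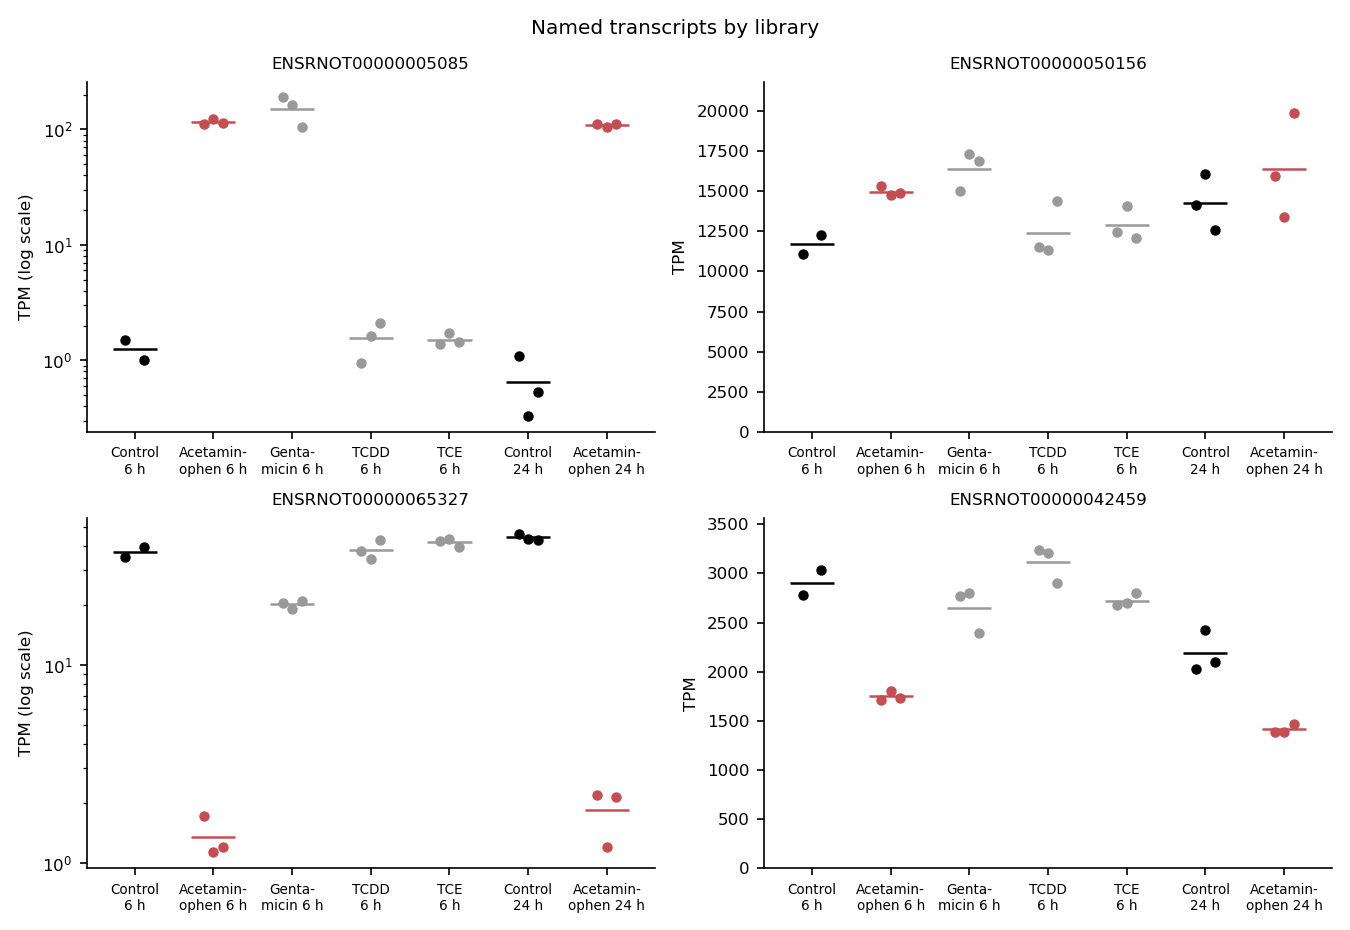
TPM of the 4 named transcripts (vertical axis, log scale in the left panels, linear from 0 in the right panels) in the 6 h libraries of every group and the 24 h libraries of control and acetaminophen; points are libraries, lines are group means, and TCE is trichloroethylene. The rise of ENSRNOT00000005085 appears with acetaminophen and gentamicin at 6 h, while ENSRNOT00000065327 is near 1 TPM with acetaminophen and near 20 TPM with gentamicin.

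How much of the message pool moved was described by the share of TPM that the called transcripts held. Those that rose made up 14.8% and 15.1% of the control libraries and 23.5%, 24.0% and 24.0% of the treated ones. Those that fell went from 21.9% and 22.3% to 13.2%, 13.3% and 13.3%. Transcripts that were not called held 62.5% to 63.2% of TPM in the 5 libraries. Since these sets were chosen on the same 5 libraries, the shares describe the size of the shift and test nothing. In the other 6 h libraries, which entered the fit's filter and error estimates but not the contrast, the rising set held 15.8% to 16.7% with TCDD and trichloroethylene and 17.7% to 18.1% with gentamicin. The falling set held 23.3% to 25.2% and 22.0% to 23.6% there.

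**Figure D3:**
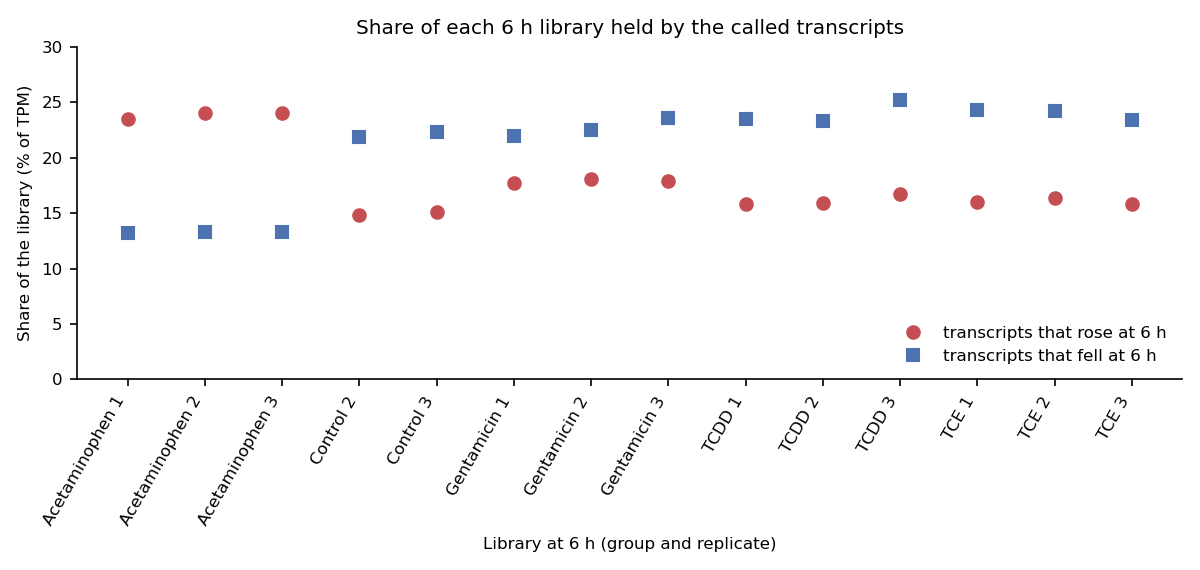
Share of each 6 h library's TPM (vertical axis, percent) held by the 3876 transcripts that rose (circles) and the 3923 that fell (squares) with acetaminophen at 6 h, by library (horizontal axis; TCE is trichloroethylene). Acetaminophen libraries hold 23.5% to 24.0% in the rising set, and all other 6 h libraries 14.8% to 18.1%.

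The gain was spread over many transcripts, and the loss over more. Rises added 8.87 percentage points of TPM in the group means, of which the 10 largest gains gave 16.5% and the 100 largest 39.3%; it took 207 transcripts to reach 50% of the gain. Falls removed 8.84 points, of which the 10 largest losses gave 8.65% and the 100 largest 29.9%, and 50% of the loss took 324 transcripts. The treated libraries were also somewhat more dominated by abundant transcripts than the controls were. The 100 most abundant held 32.2% to 32.9% of TPM in treated and 30.1% to 30.2% in control libraries, and 50% of TPM lay in 293 to 307 transcripts in treated and in 337 to 346 in control libraries. Controls differed from the other 6 h groups as well. With gentamicin, TCDD and trichloroethylene the 100 most abundant held 26.2% to 28.6%, and 50% of TPM lay in 387 to 454 transcripts.

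Fewer calls fell among the most abundant transcripts. Of the 100 most abundant in control, 7 rose and 4 fell, where 24.2% and 24.5% of all tested transcripts did, with log2 changes between -0.8 and 0.59 and a median of 0.16, beside a median of 0 over all tested transcripts. Of these 100, 91 were also among the 100 most abundant with acetaminophen.

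Calls were most frequent at 10 to 100 TPM, and large changes at 1 to 10 TPM. Abundance was taken as mean TPM over all libraries of the series. The share called was 20.1% of 1925 transcripts under 1 TPM, 44.9% of 4705 at 1 to 10 TPM, 58.8% of 7779 at 10 to 100 TPM, 48.7% of 1424 at 100 to 1000 TPM and 19.1% of 157 over 1000 TPM. The balance of directions differed between classes. Rises outnumbered falls under 1 TPM (241 and 146) and at 1 to 10 TPM (1174 and 940). Falls outnumbered rises at 10 to 100 TPM (2390 and 2184) and at 100 to 1000 TPM (433 and 261), while over 1000 TPM there were 16 rises and 14 falls. Changes beyond 2-fold by glmTreat made up 6.91% of transcripts under 1 TPM, 13.9% at 1 to 10 TPM, 8.96% at 10 to 100 TPM, 4.99% at 100 to 1000 TPM and 1.27% over 1000 TPM. Precision moved with abundance too: the median SE was 0.915 under 1 TPM, 0.293 at 1 to 10 TPM and 0.136 at 10 to 100 TPM, so that the low share called under 1 TPM goes with a wide error. Over 1000 TPM the median SE was 0.171 and the median absolute log2 change 0.224, beside 0.437 at 10 to 100 TPM.

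Long transcripts were called more often than short ones. The share called was 19.5% of 657 transcripts under 500 bases, 32.2% of 1849 at 500 to 1000, 49.0% of 5396 at 1000 to 2000, 55.4% of 5853 at 2000 to 4000 (lower edges included) and 53.1% of 2235 with 4000 bases or more. The same order held within the class of 10 to 100 TPM, with 22.9%, 43.1%, 58.3%, 65.8% and 61.1%. Median SE fell along the first 4 of these length classes, from 0.361 to 0.266, 0.175 and 0.152, while the median absolute log2 change rose from 0.391 to 0.445, 0.498 and 0.526. The part of the error in these shares was not tested. The median log2 change over all transcripts of a length class ran from -0.03 to 0.06.

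**Figure D4:**
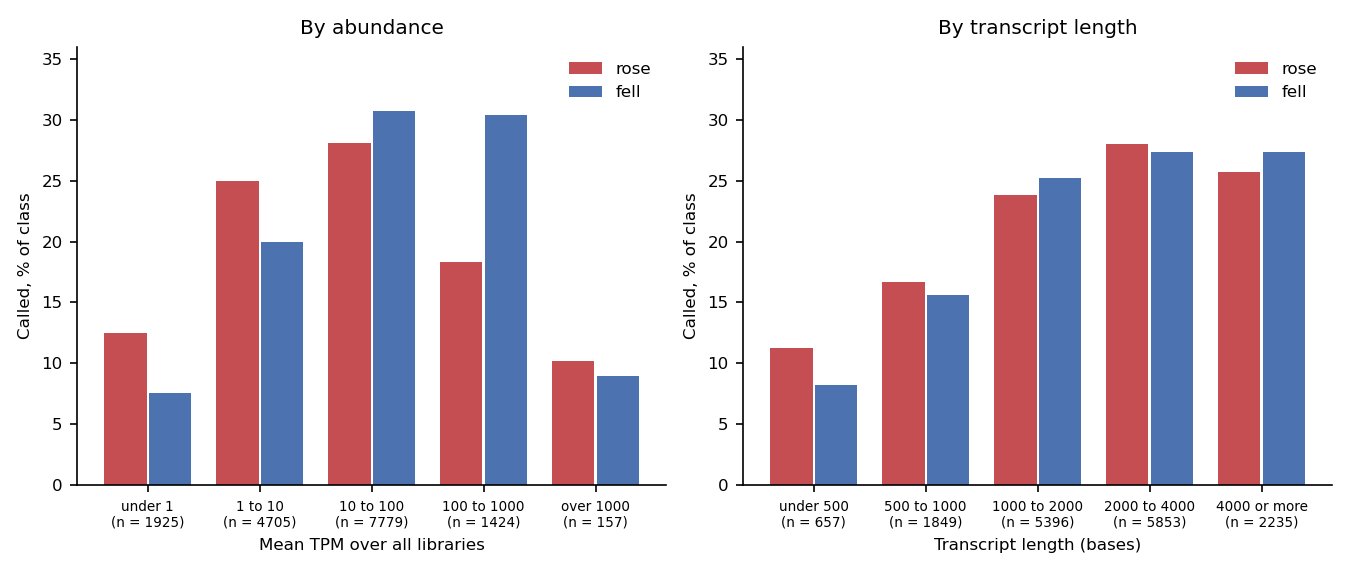
Share of tested transcripts that rose (red) or fell (blue) with acetaminophen at 6 h (vertical axis, percent of the class), by class of mean TPM over all libraries (left) and of transcript length in bases (right). The shares peak at 10 to 100 TPM for both directions, and falls exceed rises at 100 to 1000 TPM (30.4% and 18.3%).

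The calls were also described by the estimated counts, which stay whole where no read had to be divided. Whether reads shared between transcripts carry the result was not tested. Of the tested transcripts, 10156 had whole counts in all 5 libraries, and 5600 of these were called: 2812 rose and 2788 fell. That is 55.1%, beside 37.7% of the 5834 transcripts with a fractional count in some library. The glmTreat test passed 11.7% and 6.31% of the 2 classes. When only transcripts with whole counts were fitted, 5791 were called, and 5543 of the 5600 passed in the same direction. That fit used the same counts for these transcripts, so close agreement was largely fixed in advance. Transcripts with whole counts were thus called more often, with a smaller median SE (0.157 beside 0.255). The 2 classes were not matched for abundance or length.

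A small set of transcripts was seen in only 1 of the groups. In 22 cases a transcript had no count in either control and at least 10 in every treated library. These were picked by their counts in the same 5 libraries, so they are described with no test. Their treated means ran from 0.412 to 37.2 TPM with a median of 1.46 TPM. Set against a floor of 3 counts in each control library, they were at least 3.79-fold to at least 35.6-fold higher, with a median bound of 11.5-fold. Few of them were silent everywhere without acetaminophen: 4 of the 22 had no count in the TCDD and trichloroethylene libraries of 6 h, 5 had none with gentamicin at 6 h and 4 had none in the 24 h controls. At 24 h, 16 of the 22 had at least 10 counts in every acetaminophen library. In each of those libraries singly, 14277 to 14406 of the 28420 listed transcripts reached 10 counts. The matching count of the 22 in the 24 h controls was not taken. Only 7 had whole counts in all 5 libraries of 6 h, so for the others a share of the reads was assigned between transcripts. The opposite pattern was found in 5 transcripts, at 0.329 to 3.24 TPM in controls and at least 4.22-fold to at least 7.21-fold lower with acetaminophen.

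Because the 6 h control has 2 libraries, acetaminophen was also compared with the 6 libraries of TCDD and trichloroethylene at 6 h, in the same fit. Those cells were treated and are not controls. This comparison shares the 3 acetaminophen libraries with the one above and is no independent replicate. It called 9726 transcripts, 60.8% of those tested (30.3% up and 30.6% down). Of the transcripts called against control, 3622 rises (93.4%) and 3693 falls (94.1%) passed in the same direction. In the glmTreat lists the shares were 99.4% of the 887 rises and all 668 falls, with median log2 changes of 2.03 and -1.93 beside 2.06 and -1.9 against control. The medians against control include the lower bounds for groups without counts, while those against TCDD and trichloroethylene are of fitted changes. The 4 named transcripts kept their calls: ENSRNOT00000005085 at 6.42 ± 0.28, ENSRNOT00000050156 at 0.44 ± 0.1, ENSRNOT00000065327 at -4.67 ± 0.14 and ENSRNOT00000042459 at -0.54 ± 0.09 (log2 change ± SE; the largest edgeR adjusted p was 0.0003). With limma on log2(TPM + 1), rises were 36.9% of the calls of this comparison, beside 49.8% in the edgeR fit. In the comparison with control they were 45.8% and 49.7%. The balance of directions thus differed between these methods, which differ in scale, scaling and model, and the cause was not tested.

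The large early changes were followed into the 24 h libraries, which have their own controls. The 24 h libraries entered the fit that set the filter and the error estimates, but not the 6 h change itself. Of the 887 large rises, 854 (96.3%) passed upward again at 24 h, where 30.3% of all tested transcripts did, and 4 passed downward. Of the 668 large falls, 582 (87.1%) passed downward, where 29.2% of all did, and 13 passed upward. The median log2 change at 24 h was 1.82 for the large rises (quartiles 1.21 and 2.74) and -1.46 for the large falls (quartiles -2.16 and -0.96). ENSRNOT00000005085 and ENSRNOT00000065327 changed about as much at 24 h, with log2 changes of 7.23 ± 0.43 and -4.74 ± 0.14 (SE), and ENSRNOT00000042459 stood at -0.78 ± 0.1. For ENSRNOT00000005085 and ENSRNOT00000065327, the means with the other compounds also lay away from control by 24 h, which was not tested. With gentamicin, TCDD and trichloroethylene, ENSRNOT00000005085 had means of 722, 24.2 and 11.9 TPM, beside 0.651 TPM in control. For ENSRNOT00000065327 these means were 3.3, 8.2 and 27.5 TPM, beside 44.0 TPM in control. ENSRNOT00000050156 gave 0.04 ± 0.11 at 24 h (edgeR adjusted p = 0.8), and its difference between the times was -0.38 ± 0.17 (SE, edgeR adjusted p = 0.1), which did not pass.

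**Figure D5:**
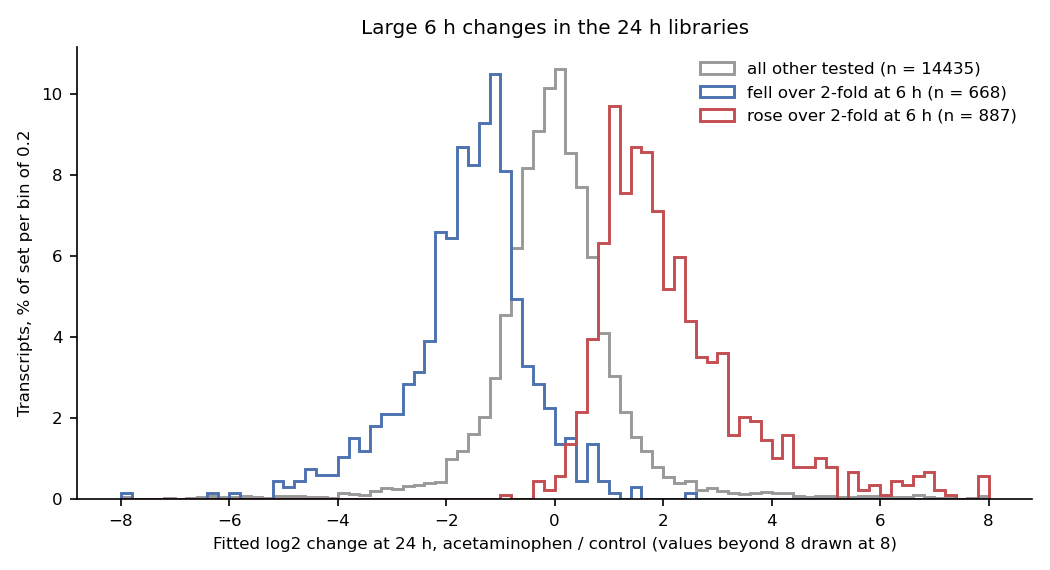
Fitted log2 change between acetaminophen and control at 24 h (horizontal axis) for the 887 transcripts that rose by more than 2-fold at 6 h (red), the 668 that fell by more than 2-fold (blue) and all other tested transcripts (grey), as percent of each set per bin (vertical axis). The quartiles of the red and blue sets lie on opposite sides of 0, with medians of 1.82 and -1.46. At 24 h, 4 of the red set passed downward and 13 of the blue set upward.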

How the data were processed

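Per the submitters' processing notes, the authors ran kallisto 0.43, a pseudoaligner; its transcript set, strand setting and trimming are not stated in these sources. The deposited estimated counts (expected counts, 19.1% to 19.7% of values not whole in these 5 libraries) and deposited TPM values are per the file headers. Estimated counts were rounded, filtered with filterByExpr (minimum count 10, leaving out 0.0411% of counts) and scaled with TMM factors. All 29 libraries entered 1 robust edgeR 4.0.16 quasi-likelihood fit (R 4.3.3) with a coefficient for each of 10 groups and 19 residual degrees of freedom; acetaminophen at 6 h was a contrast with control, with calls at an adjusted p (Benjamini-Hochberg) below 0.05. SE is the log2 change divided by the square root of F. Means and SDs are of TPM over libraries. Replicates were not duplicates (chi-square of 2.91 to 3.37 per degree of freedom). On simulated counts (15990 transcripts, 200 changed, 4 draws), recovery was 41.8% at 1.5-fold, 71.6% at 2-fold and 90.9% at 4-fold, with 2.83% of calls false. That setting had far fewer changes than the 7799 transcripts called in the data, and as many rises as falls. These shares therefore check the code and need not hold for the data. Alternatives were DESeq2 1.42.0, limma 3.58.1 on log2(TPM + pseudocount), other scalings, filters and covariates, and leaving out each library. Planned gene lists were not used, because identifiers could not be named. Members, rules and alternatives were chosen with earlier results of these data known.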

Additional observations from a re-analysis of the deposited data

How the results depend on the processing

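The count of called transcripts, 7799 in the reported fit, ran from 5791 (only transcripts with whole counts) to 9726 (TCDD and trichloroethylene as reference) over the alternatives, and none of the reported calls passed in the opposite direction in any of them. DESeq2 called 7896 and the 5 compared libraries alone 9119. Leaving out 1 library gave 6281 to 7231 calls, 1215 to 1420 calls beyond 2-fold, and 8780 to 8939 calls against TCDD and trichloroethylene, with the spread of a single remaining control taken from the other groups. Beyond 2-fold, limma gave 714 calls on log2(TPM + 1) and 1005 on log2(TPM + 0.1), beside 1555; DESeq2 gave 1131. Whether the replicate number shared by groups pairs the libraries could not be told. The correlation of deviations was -0.00749 for number 2 and 0.0546 for number 3. Deviations of 2 controls from their mean mirror each other, so these values are not independent checks. With a replicate block 7631 transcripts passed, 1531 beyond 2-fold and 9644 against TCDD and trichloroethylene. Log2 changes without 1 library ran from 6.31 to 6.91 for ENSRNOT00000005085, from 0.36 to 0.48 for ENSRNOT00000050156, from -4.94 to -4.59 for ENSRNOT00000065327 and from -0.72 to -0.62 for ENSRNOT00000042459. ENSRNOT00000050156 did not pass without control replicate 2 (0.36), on log2(TPM + 1) (0.36) or on log2(TPM + 0.1) (0.36); the cause was not tested. Precision was lowest for transcripts under 1 TPM, where the median SE was 0.915; depth was not varied.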
